A study of Drosophila melanogaster with 2 samples.

Results

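The genes described here are u-shaped (ush) and the 5 GATA factor genes of the fly, pannier (pnr), serpent (srp), grain (grn), GATAe and GATAd. These 6 genes were picked from 13945 protein-coding genes as a family, and they were proposed after ush had been seen to hold one of the strongest peaks of the same data. Each locus was taken as the gene body plus 5 kb upstream of its 5′ end on its own strand. Every peak summit of CG8216-eGFP inside these loci was collected, 20 reproducible summits in all.

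The peaks come from chromatin immunoprecipitation followed by sequencing (ChIP-seq) on whole Drosophila melanogaster prepupae, animals at the onset of metamorphosis, with males and females pooled. The flies were a transgenic line that stably carries CG8216, also named spab, with GFP joined to its C-terminus, and an anti-GFP antibody was used. Both libraries are of this 1 line and stage, as biological replicates 1 and 2, so there is no untagged, mutant or other-stage group to set against them. The labels give 24 days as the age of these prepupae and do not name the promoter that drives the fusion. Because whole animals were used, a peak cannot be placed in any tissue, and signal from few cells with dense binding cannot be told apart from signal from many cells with sparse binding.

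GATA factors are zinc finger transcription factors that bind sites with GATA as their core and set cell fate in several tissues. ush encodes a Friend-of-GATA protein, a zinc finger cofactor that attaches to the N-terminal zinc finger of a GATA factor and alters what that factor does at its targets. In flies pnr patterns the dorsal ectoderm, the notum and the heart, srp sets the fate of haemocytes, fat body and endoderm, grn acts in ectodermal organs and neurons, and GATAe maintains the midgut.

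The peak list that the authors thresholded by irreproducible discovery rate (IDR) is called reproducible below. Its peak signals lay between 149.5 and 4074, with a median of 278.4, in units of the caller, and its median width was 460 bp. The scale of this signal is not stated, and it is the authors' own value for each peak. Relaxed lists of 30000 peaks each, which include background, exist for replicate 1, for replicate 2 and for both pooled. The reproducible list ends at 149.5, the signal that the pooled list has at the same number of peaks. In the family, the pooled summits with at least that signal were those in the reproducible list. The name thus stands for the list, not for agreement of the replicates at each site. Signals of different lists are not scaled for read number, and read depth is unknown.

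The sequences that carry these data are the 200 bp around the summits of the strongest sites, from the RefSeq copy of the Release 6 genome (dm6). They are shown on the forward strand, 5′ to 3′. Capitals mark the words searched on both strands, which were the GATA words AGATAA or AGATAG and likewise TGATAA or TGATAG, the CAGTG words CAGTGTA and CAGTGCA, and the word CACTGAG. The CAGTG and CACTGAG words had been found earlier on these same peaks. The highest site of ush (ush-4, chr2L:480981-481180), its neighbour beside cbt (ush-3, chr2L:479980-480179) and its highest site away from cbt (ush-11, chr2L:510653-510852) are given first. The single site of srp (srp-1, chr3R:15984592-15984791) and the highest site of grn (grn-1, chr3R:8154076-8154275) follow.
ush-4: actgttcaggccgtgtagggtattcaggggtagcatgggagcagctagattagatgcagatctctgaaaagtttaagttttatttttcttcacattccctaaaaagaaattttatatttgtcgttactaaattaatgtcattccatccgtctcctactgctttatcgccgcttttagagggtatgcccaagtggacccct
ush-3: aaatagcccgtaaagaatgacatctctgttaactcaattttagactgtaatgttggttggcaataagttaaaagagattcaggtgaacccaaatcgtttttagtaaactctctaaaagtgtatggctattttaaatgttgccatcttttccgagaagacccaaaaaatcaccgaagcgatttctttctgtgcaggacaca
ush-11: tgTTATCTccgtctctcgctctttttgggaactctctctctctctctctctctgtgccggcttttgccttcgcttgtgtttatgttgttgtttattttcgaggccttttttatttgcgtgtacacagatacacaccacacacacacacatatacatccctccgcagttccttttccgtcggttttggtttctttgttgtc
srp-1: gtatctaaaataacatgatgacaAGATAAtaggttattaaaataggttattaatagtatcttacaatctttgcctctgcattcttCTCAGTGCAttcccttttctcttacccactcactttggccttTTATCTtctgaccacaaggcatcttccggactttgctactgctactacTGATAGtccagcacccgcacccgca
grn-1: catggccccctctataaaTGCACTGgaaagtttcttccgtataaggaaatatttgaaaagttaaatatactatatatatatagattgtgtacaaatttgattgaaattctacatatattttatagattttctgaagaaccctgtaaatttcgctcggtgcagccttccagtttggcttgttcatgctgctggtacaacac
Neither ush-4 nor ush-3 held a word of any set, ush-11 held 1 GATA word at its left edge, and srp-1 held words of all 3 sets within these 200 bp.

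The family divided into 1 gene with many summits and 5 with few or none. ush held 16 of the 20 reproducible summits (80.0%), grn held 3, srp held 1, and pnr, GATAe and GATAd held 0. At least 1 reproducible summit was thus found at 3 of 6 genes of the family, against 27.3% of all protein-coding loci. A summit lay within 500 bp of the gene's own start site at 1 of 6 genes, ush, against 10.9% of all protein-coding genes. Because the family was chosen on these peaks, the counts are a description and no test was made.

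ush stood near the top of the genome by number of summits. At least 16 summits were found in 14 of 13945 loci (0.100%), and ush was level with E2f1, a cell cycle transcription factor gene, and tara, which also held 16. ush spans 69.3 kb with its upstream stretch, and long loci hold more summits, so density was read as well. Its 0.231 reproducible summits per kb exceeded the density of 95.2% of all protein-coding loci, which together had 0.0469 per kb. Most of those loci held 0, as only 27.3% of all held any summit. Among 178 genes of similar locus length (the shorter at least 0.8 times the longer), the median was 2 summits and the maximum 26, 30.3% held 0, and 3 held 16 or more (1.69%). None of those 178 genes held a peak with a higher signal than the strongest of ush. By this measure ush was the 6th gene of the genome. Loci overlap, so 1 peak can count for several genes, and cbt shares its strongest peak with ush.

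**Figure D1:**
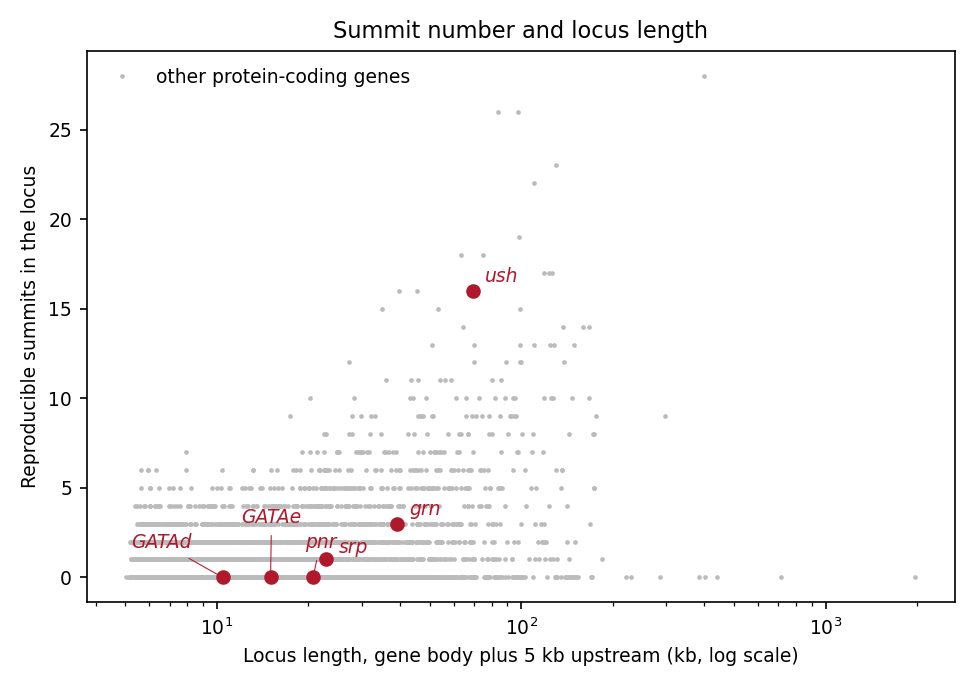
Reproducible summits per locus (vertical axis) against locus length in kb (horizontal axis, log scale) for the 6 family genes (red) and all other protein-coding genes (grey). ush, at 69.3 kb and 16 summits, sits above nearly all loci of its length, while grn (3), srp (1), pnr, GATAe and GATAd (0 each) lie in the dense band at the bottom.

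ush (FBgn0003963) lies at 2L:476220-540560 on the forward strand of dm6, with 5 annotated transcripts and 4 start sites. Of its 16 summits, 13 were intronic, 1 lay upstream, 2 lay in an exon that is 5′ UTR in 1 transcript, and 0 lay in coding sequence. That exon is intron in 1 other transcript, and the remaining 3 transcripts start downstream of both summits. 9 of them lay in the first 15 kb of the gene.

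The 3 strongest summits of ush lay together in its first intron and held 62.0% of the summed signal of all 16, which was 11083. ush-4, at 2L:480847-481351, had a signal of 3746 and was the 3rd strongest peak of the whole reproducible list. Its signal was 1858 in replicate 1 and 1867 in replicate 2, and it ranked 3rd and 2nd in those libraries. ush-2, at 2L:478906-479361, had a signal of 1831 and rank 53, with 847.7 in replicate 1 and 995.3 in replicate 2. ush-3, at 2L:479860-480269, had 1294 and rank 158, with 660.9 and 650.4. For all 3 the replicates differed by less than the steps between the summits, so both libraries put them in the same order.

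These summits sit at a nested gene. cbt (cabut), a zinc finger transcription factor gene that takes part in dorsal closure, lies inside the first intron of ush at 2L:476446-479688 on the opposite strand. ush-2 lay inside cbt, 529 bp downstream of its start site and exonic in 2 of 3 cbt transcripts. ush-3 lay 392 bp upstream of the cbt start site, and ush-4 1393 bp upstream of it and 4861 bp downstream of the first ush start site. In all, 5 ush summits (ush-2 to ush-6) lay in the body of cbt or the 5 kb upstream of it. A peak list does not tell whether a site acts on ush, on cbt or on both.

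Without the cbt locus, 11 summits remained at ush, at 0.18 per kb and with a summed signal of 3796. The strongest of these was ush-11, at 2L:510539-510991, 12713 bp from the nearest ush start site, with a signal of 875.6 and rank 483. Its signal was 409.5 in replicate 1 and 464.2 in replicate 2. ush-7, at 2L:485708-486001, followed with 579.1 and rank 1071, and with 272.9 in replicate 1 and 305.4 in replicate 2. Both lay in introns, and replicate 2 was the higher library at each.

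The upstream summit, ush-1, at 2L:472391-472565, had a signal of 442.2 and rank 1617, with 182.7 in replicate 1 and 263.6 in replicate 2. It lay 3819 bp before ush but 201 bp from a start site of CG4297, a gene without a given name, and 612 bp from that of MED15, a Mediator subunit gene. ush-5, at 2L:481718-482177, and ush-6, at 2L:484039-484498, closed the cluster next to cbt. ush-5 had a signal of 264.7, with 109.0 in replicate 1 and 161.2 in replicate 2. ush-6 had 151.3, the lowest of the 16, with 89.40 in replicate 1 and 61.53 in replicate 2. Both sites were more than an order of magnitude below ush-4, their neighbour.

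At its own start sites ush had modest peaks. ush-9, at 2L:490186-490645, had a signal of 198.1 and lay 419 bp upstream of the start at 490835, which it shares with lncRNA:CR46258, with 85.86 in replicate 1 and 116.2 in replicate 2. ush-10, at 2L:490418-490877, had 182.8 and lay 187 bp upstream of the same start, with 59.19 and 110.7. The 2 intervals overlap and their summits are 232 bp apart, the smallest gap in the locus. They were the only reproducible summits within 500 bp of an ush start site, and no summit lay that close to the first ush start at 476220. Outside the reproducible list, the pooled relaxed list held a summit 26 bp upstream of an ush start, with 128.0 and rank 6995. That summit had 109 in replicate 2 and no match in replicate 1. Just beyond the 500 bp limit, ush-14, at 2L:522692-523151, had 219.8 at 544 bp upstream of the start at 523466, with 96.57 in replicate 1 and 112.5 in replicate 2. ush-15, at 2L:524478-524600, had 302.1 at 843 bp downstream of a start, with 133.7 and 164.0.

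The other 4 summits of ush were intronic. ush-8, at 2L:488195-488654, had a signal of 196.4, with 95.02 in replicate 1 and 102.4 in replicate 2. ush-12, at 2L:516120-516322, had 389.0, with 223.1 and 160.2. ush-13, at 2L:517958-518417, had 168.5, with 65.59 and 94.37, and ush-16, at 2L:530190-530649, had 242.1, with 113.5 and 129.6. These values lie on both sides of the list's median of 278.4, as did the locus as a whole, with 8 summits above that median and 8 below. Among the 594 strongest peaks of the list ush had 4 of its 16 summits, while those 594 are 9.99% of all reproducible peaks. The 4 were ush-2, ush-3 and ush-4, which lie in the cbt locus, and ush-11, which lies outside it. The family was proposed after the strong signal at ush had been seen.

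Summits of ush followed each other closely, which largely restates their number in the locus. The 15 gaps between neighbours had a median of 1991 bp, between 232 and 20105 bp, and 9 of them were under 2500 bp. Over all reproducible summits the median gap was 5604.5 bp, with quartiles of 1619.25 and 20329.75 bp, and 29.3% of gaps were shorter than the ush median. The widest gap of ush separated ush-10 from ush-11, a stretch with 13 weaker summits in the pooled relaxed list. Over the whole locus that list held 52 summits, or 0.75 per kb, more than 97.1% of protein-coding loci. Of these 52, 26 had a summit within 100 bp in both replicates, 6 in replicate 1 only, 12 in replicate 2 only and 8 in neither. The share matched in both, 50%, is close to the 52.6% of all pooled relaxed summits.

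**Figure D2:**
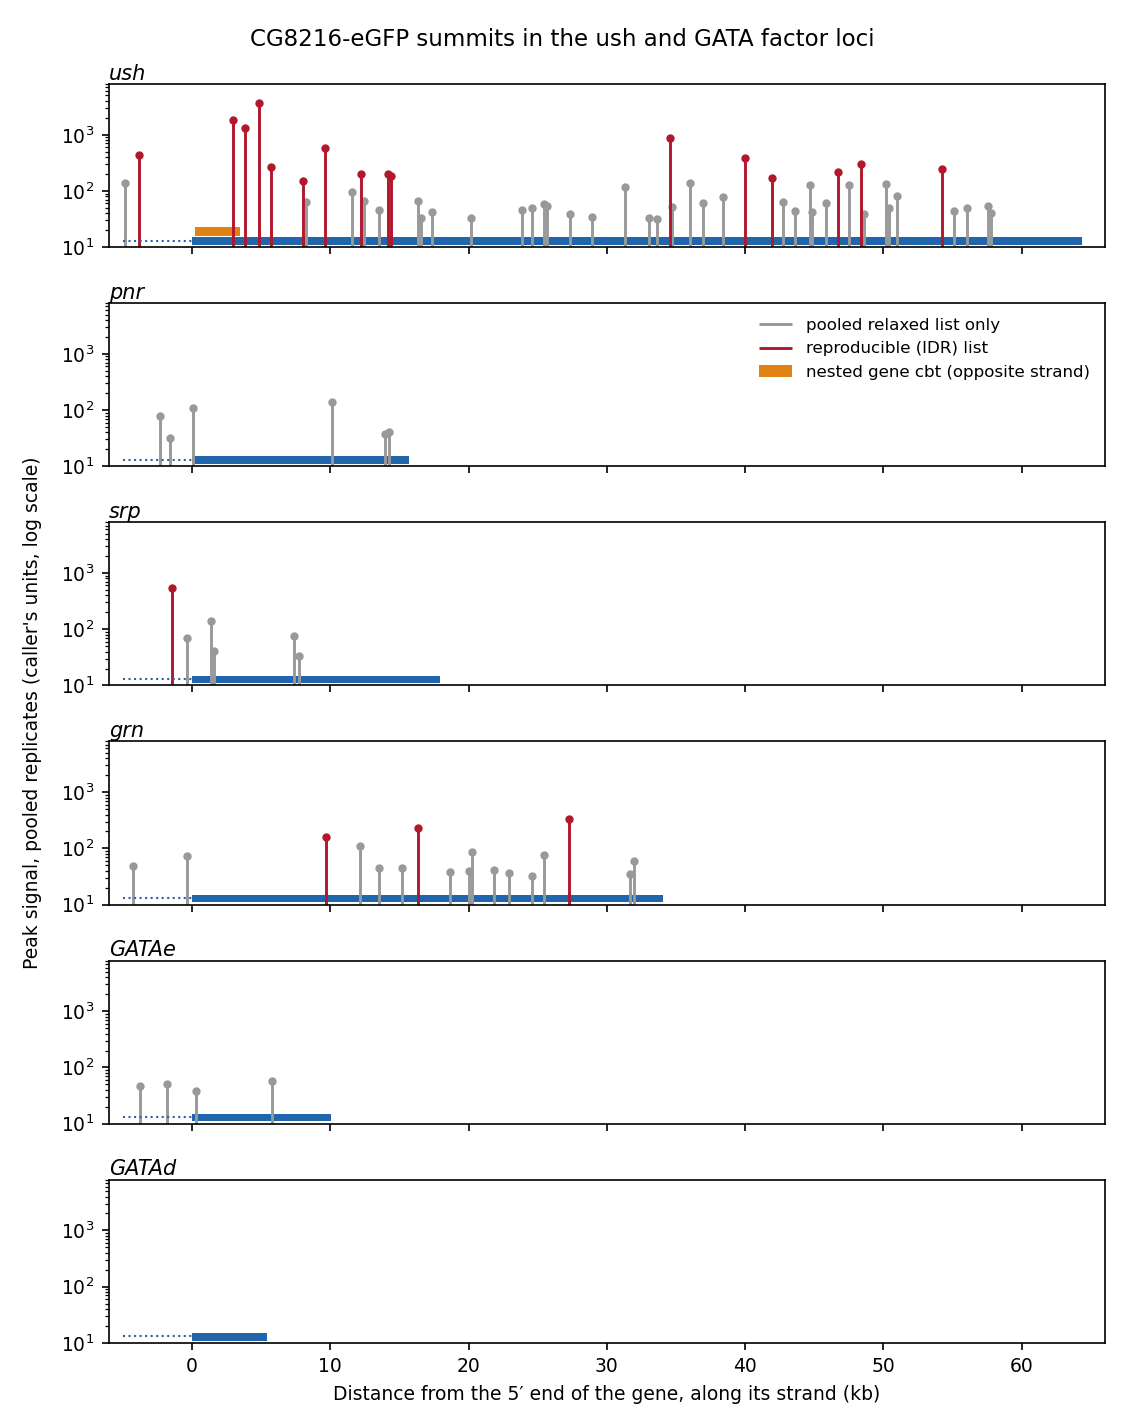
Peak signal in the pooled replicates (vertical axis, caller's units, log scale) at each summit against distance in kb from the 5′ end of the gene along its strand, one panel per family gene. Red stems are reproducible summits, grey stems are summits of the pooled relaxed list only, blue bars are gene bodies, dotted lines the 5 kb upstream and the orange bar the nested gene cbt. The ush panel holds 16 red stems, the highest beside cbt at 3746, the grn panel 3, the srp panel 1, and the GATAd panel holds no stem.

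grn (FBgn0001138) came second in the family. It lies at 3R:8147368-8181444 on the reverse strand and has a single annotated start site. Its 3 reproducible summits were all intronic and all far from that start. grn-1, at 3R:8154046-8154296 in intron 5 and 27268 bp from the start, had a signal of 333.4 and rank 2352, with 135.8 in replicate 1 and 195.4 in replicate 2. grn-2, at 3R:8164849-8165308 in intron 4, had 231.6, with 105.3 and 133.5. grn-3, at 3R:8171500-8171959 in intron 2, had 160.5, with 58.78 and 95.75. The order of the 3 was the same in both libraries, and signal was higher in replicate 2 for each of them.

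The density of grn, 0.0768 summits per kb, exceeded that of 77.3% of loci. As only 27.3% of loci held any summit, nearly all of those exceeded held 0. At least 3 summits were found in 32.5% of the 379 genes of like length, so grn was not set apart by its count. Near the grn start site the pooled relaxed list held a summit 328 bp upstream with a signal of 74.4, and 40 in replicate 1 and 44.1 in replicate 2. In all that list held 17 summits in the grn locus, of which 8 (47.1%) were matched in both replicates, again close to 52.6%.

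srp, GATAe and pnr are neighbours on chromosome 3R, all on the forward strand, with 5019 bp between the bodies of srp and GATAe and 6945 bp between those of GATAe and pnr. From the upstream stretch of srp to the end of pnr, this block of 60.6 kb held 1 reproducible summit and 16 summits of the pooled relaxed list. ush, over a locus of similar length, held 16 and 52. The block had 16 relaxed summits in replicate 1 and 19 in replicate 2.

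srp (FBgn0003507), at 3R:15986152-16004085, held that summit. srp-1, at 3R:15984477-15984937, lay 1460 bp upstream of the first srp start site and had a signal of 535.5 and rank 1222. Its signal was 277.5 in replicate 1 and 268.2 in replicate 2, so the libraries nearly coincided. The next site, 1412 bp into the gene in intron 1, had 138.5 and rank 6445 in the pooled list, outside the reproducible list. It differed between the libraries, with 39.2 in replicate 1 and 103.0 in replicate 2. A summit 375 bp upstream of the start had 69.6 in the pooled list. One summit or more was found in 56.3% of the 657 genes of the length of srp.

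pnr (FBgn0003117), at 3R:16026079-16041796, had 6 summits in the pooled relaxed list and 0 in the reproducible list. The strongest, in intron 1 and 1589 bp from the nearest pnr start site, had a signal of 141.9 and rank 6278, with 63.1 in replicate 1 and 71.3 in replicate 2. A summit 52 bp downstream of a start site had 106.9 and rank 8417, with 71.6 in replicate 1 and 26.3 in replicate 2. This start-site peak was the strongest of pnr in replicate 1, at rank 5834, but stood at rank 21362 in replicate 2. The remaining 4 had signals between 31.8 and 80.0. Among 735 genes of like length, 43.8% also held 0 reproducible summits.

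GATAe (FBgn0038391), at 3R:16009105-16019133, had 4 pooled relaxed summits, the strongest at 57.7 and rank 16013, with 31.8 in replicate 1. The nearest summit of replicate 2, with 32.8, lay just beyond the 100 bp limit for a match. One of the 4 was matched in both replicates, at 50.6 in the pooled list, 29.4 in replicate 1 and 21.4 in replicate 2. GATAd (FBgn0032223), at 2L:10333734-10339185, was the only family gene without a summit in any of the 4 lists. A locus without a pooled relaxed summit is frequent, at 47.0% of all protein-coding loci. GATAd also lies in a stretch of 289.7 kb on 2L without any summit of that list, which holds 93 complete coding loci, so its 0 is shared with its neighbours. Around GATAd the stretch free of summits was 411.2 kb in the reproducible list, 273.6 kb in replicate 1 and 69.2 kb in replicate 2. Of the genes of like length, 55.5% of 1124 for GATAe and 69.6% of 2558 for GATAd held 0 reproducible summits.

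The weakest reproducible summits of the family were close in signal to the strongest ones left out. Just inside the threshold were ush-13 (168.5), grn-3 (160.5) and ush-6 (151.3, rank 5875). Just outside were the intronic sites of pnr (141.9) and srp (138.5) and a further ush site (138.2, rank 6460). The 0 of pnr therefore says that its best site ranked 6278th, not that no signal was found there. The 5 GATA factor genes together held 4 reproducible summits over 108.2 kb, or 0.037 per kb, and the ush density was 6.25 times that. The ush density includes the cbt locus, without which it was 0.18 per kb. The contrast also follows a choice of family made after the strong ush peak had been seen. Per kb of pooled relaxed summits the order was ush (0.75), grn (0.435), pnr (0.29), GATAe (0.266), srp (0.262) and GATAd (0), against 0.205 over all loci together. In that order pnr, GATAe and srp differ by less than 1 summit's worth of their own loci.

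All 20 summits of the family were matched within 100 bp in both replicates, against 94.6% of all reproducible summits (5621 summits). This list was derived from the replicates it is matched to here, which favours a match. Over the 20 summits, replicate 1 over replicate 2 gave log2 ratios between −0.90 and 0.54 with a median of −0.23, and replicate 1 was lower at 16 of them. Over all matched reproducible summits its median was −0.16, with quartiles of −0.41 and 0.05 and an SD of 0.44. ush-10 had the lowest ratio of the 20 and ush-6 the highest, and both are among the weak sites of the locus.

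**Figure D3:**
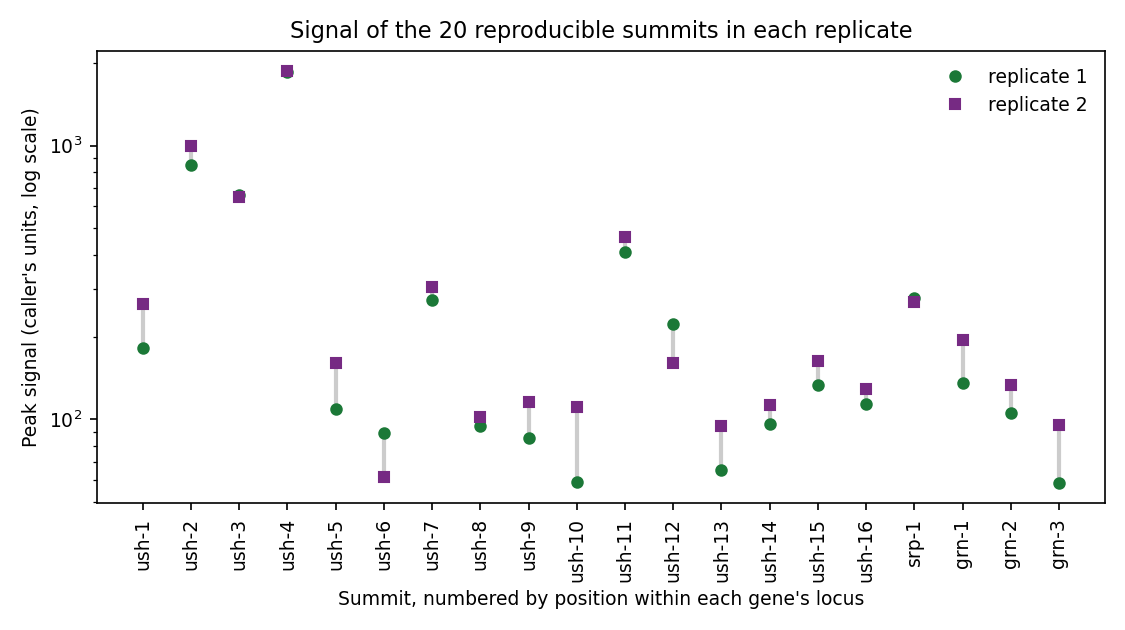
Peak signal (vertical axis, caller's units, log scale) of each of the 20 reproducible summits of ush, srp and grn in replicate 1 (circles) and replicate 2 (squares), joined by a grey bar, ordered by position within each locus. ush-4 stands highest in both libraries (1858 and 1867), and replicate 1 is lower at 16 of the 20 summits.

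The family's summits were searched for the site of the family's own proteins. Within 200 bp, 6 of 20 family windows (30.0%) held a GATA word, against 37.2% of all reproducible windows and 28.2% of windows centred 500 bp away. The count lies near both shares at this width. Within 100 bp it was 2 of 20, below the shares of 22.0% and 14.7% at that width. At ush the count was 5 of 16 (31.2%), in ush-1, ush-10, ush-11, ush-14 and ush-15. The ush locus held 190 GATA words in all, 2.74 per kb against 1.95 per kb over the chromosomes, and 5 of them (2.63%) lay in a reproducible summit window, where such windows are 4.61% of the locus. Over the chromosomes 1.15% of GATA words lay in such windows, which are 0.888% of the bases. The presence or absence of these letters says nothing of whether a GATA factor binds there.

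The CAGTG words were present in 4 of 20 family windows, against 17.2% of all reproducible windows and 4.66% of windows 500 bp away. The family count thus lies near the share of all reproducible windows. The 4 were grn-1, grn-3, srp-1 and ush-16, which makes 3 of the 4 summits of the GATA factor genes and 1 of the 16 of ush (6.25%). With 4 summits of the GATA factor genes this split is a count and no more. It also depends on the width. Within 100 bp, 1 of 20 family windows held a CAGTG word, and none at ush. Within 400 bp, 5 of 20 did, 2 of them at ush. In srp-1 the CAGTG word overlaps CACTGAG read on the other strand, a joined word (CTCAGTGCA or CTCAGTGTA) that 3.72% of all reproducible windows held. srp-1 was the only family window with all 3 sets, against 1.88% of all windows, and its 3 GATA words lay 74 bp left, 30 bp right and 78 bp right of the summit. ush-8 was the other family window with CACTGAG, which makes 2 of 20 (10%) against 6.71%.

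No word of the 3 sets was found in 10 of 20 family windows (50%) and in 9 of 16 ush windows (56.2%), against 50.7% of all reproducible windows. The 3 strongest ush sites were among them, and so were 51.3% of the 594 strongest sites of the whole list. ush-11, printed above, carries a run of CT repeats. The repeat word GAGAGAG, which was chosen after these sequences had been seen, was present on either strand in ush-1, ush-10, ush-11 and ush-13, 4 of 20 windows (20%) against 4.95% of all reproducible windows and 5.11% of windows 500 bp away. The GC content of the family's windows had a median of 39.5%, between 32.0 and 55.5%, against a median of 35.0% for all reproducible windows.

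Genes most like ush in summit number, strongest signal and locus length, measured as a Euclidean distance on log2 scales over all protein-coding genes, were psq (1.216), Tet (1.315), RapGAP1 (1.389), Raf (1.393) and Tlk (1.441). psq, which encodes a BTB-domain chromatin factor, held 14 summits in 64.4 kb, the strongest with 742.8 in replicate 1 and 859.5 in replicate 2. Tet, which encodes a dioxygenase of methylated bases, held 26 in 98.0 kb, the strongest with 878.6 and 966.8. RapGAP1, a GTPase-activating protein gene, held 11, Raf, which encodes a MAP kinase kinase kinase, held 15, and Tlk, which encodes a Tousled-like kinase, held 18. The strongest peak of each of the 5 genes, at most 1850 in the pooled list, was lower than ush-4, whose signal of 3746 had no counterpart among them.

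Cofactors of the GATA factors, targets of pnr, and genes of tissues or processes in which the factors act were read in 6 lists, 68 genes in all. The heart, haemocyte, dorsal and midgut lists were drawn by tissue or process, and their genes are not all GATA factor targets. Whether each gene of the cofactor and pnr lists is a cofactor or a target was not tested. At least 1 reproducible summit lay in 30 of these loci (44.1%), against 27.3% of all protein-coding loci, and within 500 bp of a start site of 9 genes (13.2%), against 10.9%. The listed loci are longer than most, with a median of 11.9 kb against 7.2 kb. Of the 4280 protein-coding loci between 8.0 and 24.6 kb, the quartiles of the listed loci, 35.5% held a summit. Both shares stand beside the counts of the single lists below. The lists differ in median locus length, from 9.6 to 19.6 kb, so neither share is matched in length to each list. The lists were chosen with earlier results of these data known, and no test was made.

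In the list of cofactors and complexes, 6 of 11 genes held a summit. osa, a subunit of the Brahma chromatin remodelling complex, had the strongest, with 2505 and rank 20, and with 1188 in replicate 1 and 1323 in replicate 2. It lay 13942 bp downstream of the nearest osa start site. Mi-2, a nucleosome remodelling ATPase, followed with 1101, and emc, an inhibitor of proneural proteins, with 717.7. Chi, tup, ap, Su(H) and da held 0, and da lies in the same stretch without pooled summits as GATAd. Chi encodes the LIM-domain-binding adaptor that links pnr to proneural proteins, and its locus had no summit in the pooled relaxed list.

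In the list of proneural and notum genes drawn as targets of pnr, 5 of 10 genes held a summit and 0 had one at a start site. sr, which specifies tendon cells, had the strongest with 838.7, and with 450 in replicate 1 and 379 in replicate 2. wg, a Wnt ligand, had 463.5 and mirr, an Iroquois homeobox gene, had 345.3. Of the proneural genes, ac held 1 summit, and sc, ase and l(1)sc held 0.

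Among heart and dorsal mesoderm genes, 4 of 12 held a summit. Mef2, a muscle transcription factor gene, had the strongest with 1986 and rank 40, and with 1077 in replicate 1 and 914 in replicate 2. tin, the heart homeobox gene, had 1 summit 232 bp upstream of a start site with 822.8, and with 389 and 440. nau, the fly MyoD gene, had 553.7. Hand, Doc1, Doc2 and Doc3 held 0, and Hand lies in the same stretch without pooled summits as GATAd.

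Haemocyte genes had the smallest share of the 6 lists, 3 of 14 (21.4%). Pvr, a receptor tyrosine kinase, had the strongest summit with 767.6, and with 343 in replicate 1 and 422 in replicate 2. kn had 173.9 and Pxn 156.9, both near the lower end of the reproducible list. gcm, lz, Hml, crq and NimC1, among others, held 0.

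Dorsal closure and dorsal ectoderm genes held a summit in 7 of 12 loci and at a start site in 3. dpp, the BMP ligand, had 1864, with 958 in replicate 1 and 937 in replicate 2, 5273 bp from the nearest start site. puc, a phosphatase that limits JNK signalling, had 1698 at 35 bp upstream of a start site, with 737 and 940. pyd, a junction protein, had 1127. shn, a zinc finger factor of the same BMP pathway, held 18 summits, more than ush.

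Midgut and endoderm genes held a summit in 6 of 10 loci and at a start site in 2. Delta, the Notch ligand, had 791.1, with 386 in replicate 1 and 406 in replicate 2, wg had 463.5 and nub, a POU factor, 445.7. The genes with a start-site summit were fkh, with 433.9, and cad, with 150.1 at rank 5920, near the end of the reproducible list.

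**Figure D4:**
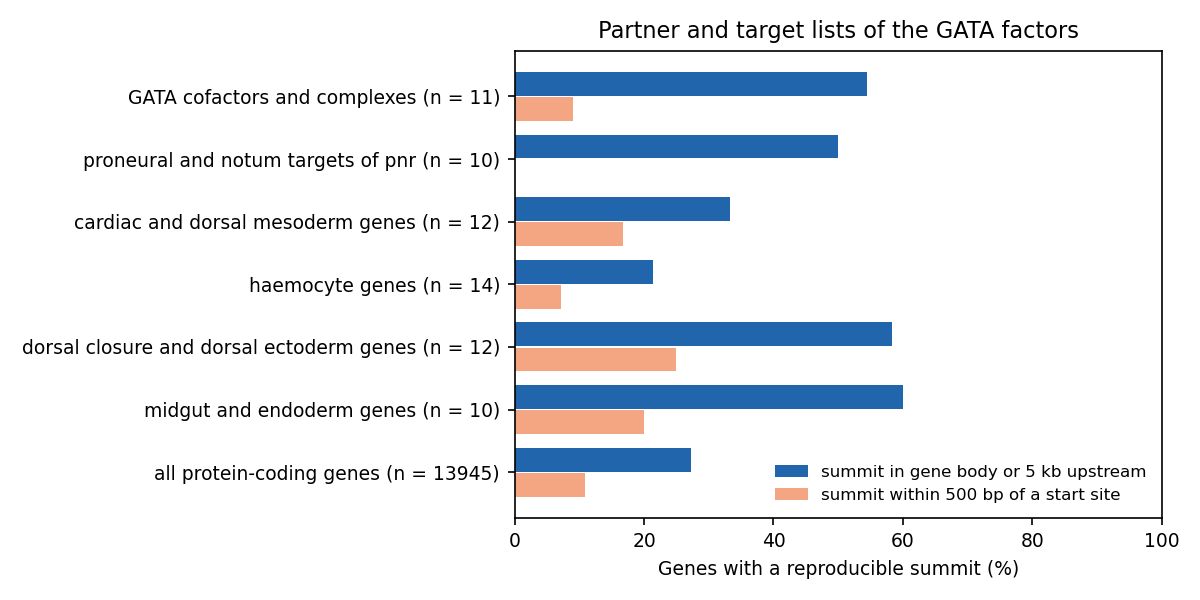
Share of genes (horizontal axis, percent) with a reproducible summit in the locus (blue) and within 500 bp of a start site (orange). Bars are the 6 lists of cofactors, pnr targets and genes by tissue or process, and all protein-coding genes (bottom), with gene numbers in brackets. Haemocyte genes have the smallest share with a summit in the locus (21.4%), and only they lie below all protein-coding genes (27.3%). Against the 35.5% of loci between 8.0 and 24.6 kb, heart and dorsal mesoderm genes (33.3%) lie below as well.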

How the data were processed

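The peak lists are the authors' deposited files on dm6, and the signal of each peak is used as deposited. Per the deposited file lists, the relaxed peaks of a replicate were called on that replicate against a control, those of the pooled list on both replicates, and the IDR list was derived from all of them. Which aligner and caller, in which versions, and which IDR threshold were used is not given in the sources used here. Read depth is unknown, and the control libraries, signal tracks and dm3 lists were not used here.

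Summits were placed on Ensembl release 115 gene models without transposable elements, with 1-based positions. Replicate summits were matched within 100 bp. Words were counted in 200 bp around summits and in windows centred 500 bp away, the side alternating. Windows that overlap an annotated UTR are not printed. The members, the 6 gene lists, the words and the naming rule were chosen with earlier results of these data known, so values are descriptions and no test was made. The rule named the members, all ush summits, up to 3 genes a list by strongest peak, the 5 genes nearest to ush and genes with a start site at a member summit. Other names were added after values were seen. 1 listed symbol was matched through a synonym. The counting steps were checked on simulated peaks. Python 3.11.15, NumPy 2.4.6, pandas 2.3.3 and matplotlib 3.10.9 were used.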

Additional observations from a re-analysis of the deposited data

How the results depend on the processing

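Restricting the reproducible list to peaks above its median signal left 8 of 16 summits at ush, 1 of 3 at grn and 10 of 20 in the family. This cut drops as many peaks of the whole list as it keeps, so ush and the family lost the same share as the list. Counting the gene body alone left srp with 0 summits, and so with 0% of loci at a lower density. Leaving out a library, by taking each replicate's own strongest peaks instead, gave 16 to 17 summits for ush, 0 to 1 for pnr, 1 to 2 for srp, 2 to 3 for grn and 20 to 22 for the family. The 1 of pnr came from replicate 1 and is its start-site peak, and the 2 of srp came from replicate 2. Start-site summits of the family numbered 1 within 250 bp and 4 within 1000 bp. Windows of 100 bp left 2 of 20 with a GATA word, below the 22.0% of all reproducible windows and the 14.7% of windows 500 bp away. The GATA count thus lay near both shares at 200 bp but not at 100 bp. A CAGTG word was left in 1 of 20, against 5.5% and 2.09%. CACTGAG was left in 1 of 20, against 1.95% and 0.841%. The median gap was 1080 bp in the pooled relaxed list. Restricted to 500 bp around start sites, listed genes with a summit numbered 9. After seeing the data, 3 alternatives were added. Of the 16 ush summits, 10 had an ush start site as the nearest coding start, and 11 lay outside the cbt locus, which left 15 in the family. The third, the GAGAGAG word, stands with the sequences. No paired analysis was possible because there is 1 group. The limits are 2 libraries of 1 line, unknown depth, no untagged sample and whole animals.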
